A study of Mus musculus with 8 samples.

Results

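Endothelial cells line the blood vessels of brown adipose tissue (BAT), the fat depot that burns fuel for heat, and 10 genes commonly used to mark them were followed here: Pecam1, Cdh5, Kdr, Flt1, Tek, Tie1, Eng, Cd300lg, Vwf and Egfl7. They were listed by name as known markers, with earlier results of these data known, and all 10 were found among the 31053 genes of the raw count table once its Ensembl identifiers were paired with mouse symbols. BAT was taken from fasted male mice aged 8 weeks, 4 of them WT and 4 db/db. The labels give the strain of both as C57BL6/J. The db/db mice carry the Leprdb mutation of the leptin receptor gene in every cell, which removes its long signalling isoform. The study's methods name the db/db line as B6.BKS(D)-Leprdb/J, whereas its resource list gives a stock number of the line on the C57BLKS/J background, and the methods and the list name different suppliers for WT mice. Background strain and source of the animals may therefore differ between the genotypes, and neither could be told apart from the mutation if they did. RNA of each mouse was sequenced as 1 bulk library, and the comparison asks whether the vessel content of BAT differed between the genotypes. In bulk tissue, fewer endothelial cells, less RNA of a marker per cell and a larger share of RNA from other cells cannot be told apart.

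BAT is among the most densely vascularised tissues, because its capillaries deliver fatty acids, glucose and oxygen to the mitochondria and carry away the heat. Endothelial cells depend on vascular endothelial growth factor (VEGF) signals, read by the receptors encoded by Kdr (VEGFR2) and Flt1 (VEGFR1), and their quiescence depends on angiopoietins, read by the receptor encoded by Tek (TIE2) with its partner Tie1. Cdh5 and Pecam1 encode adhesion molecules of the junctions between endothelial cells, and ETS family transcription factors, which bind a GGAA core, act at many endothelial promoters.

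Libraries held 2374079 to 2615009 counts in WT and 2382722 to 3240074 in db/db mice, and 9264 genes had enough counts to be tested. The mutated gene, Lepr, had 0 counts in all 8 libraries, so it did not check the genotype labels. The labels name BAT as the tissue but stromal vascular fraction as the cell type. The adipocyte hormone gene Adipoq had 2951 to 7021 counts per library and Ucp1, the uncoupling protein of brown adipocytes, had 2455 to 6487, so adipocyte RNA was abundant in every library. Levels are given below as CPM (a gene's counts relative to the library's total, scaled by the trimmed mean of M values), and a count of 3, taken as the detection floor, equals 0.902 to 1.33 CPM depending on the library.

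Promoters of Kdr, Flt1 and Tek, the receptor members whose levels did not overlap between the genotypes, are shown because ETS factors act at endothelial genes. The sequences below are the 250 bases upstream of the RefSeq start (GRCm38.p6, the mm10 build) of Kdr at chr5:75978456-75978705 on the minus strand, of Flt1 at chr5:147726012-147726261 on the minus strand and of Tek at chr4:94739039-94739288 on the plus strand, printed 5′ to 3′ on the gene's strand. Capitals mark GGAA or TTCC, the same core on either strand.
Kdr: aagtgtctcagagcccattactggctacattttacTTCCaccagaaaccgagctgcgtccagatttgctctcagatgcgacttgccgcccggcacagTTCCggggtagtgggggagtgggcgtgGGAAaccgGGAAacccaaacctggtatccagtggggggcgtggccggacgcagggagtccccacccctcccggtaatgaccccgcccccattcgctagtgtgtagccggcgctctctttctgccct
Flt1: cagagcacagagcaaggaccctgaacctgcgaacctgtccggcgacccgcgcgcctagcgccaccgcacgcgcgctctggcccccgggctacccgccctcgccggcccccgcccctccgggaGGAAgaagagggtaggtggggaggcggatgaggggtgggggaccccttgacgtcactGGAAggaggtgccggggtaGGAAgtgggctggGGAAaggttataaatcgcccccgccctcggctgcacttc
Tek: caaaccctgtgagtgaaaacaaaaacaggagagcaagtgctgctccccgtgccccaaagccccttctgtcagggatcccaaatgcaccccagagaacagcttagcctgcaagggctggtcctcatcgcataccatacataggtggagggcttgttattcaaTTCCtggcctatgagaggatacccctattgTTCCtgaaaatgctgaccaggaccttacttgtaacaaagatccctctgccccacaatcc
Kdr and Flt1 held 4 cores each and Tek held 2. The motif is short and common: 93.4% of the 32851 RefSeq promoter windows of this length held at least 1 and 33.4% held at least 4, so the matches describe these windows and mark no binding site. Of the 10 members, 6 had an entry in the promoter table. Tie1, whose levels overlapped, held 7 cores, a number reached by 3.82% of all windows, but most of its window lies inside the gene as GENCODE annotates it, and it is not printed. The Kdr window shares its last 3 bases with the annotated gene. The window of Eng held 3 cores, and the 3 windows of Egfl7, all inside that gene's annotated span, held 1 to 5.

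The 2 VEGF receptors were both lower in every db/db library than in any WT library, and the difference passed the threshold for Kdr only. Kdr (ENSMUSG00000062960, chr5:75932827-75978458, minus strand, mm10), the main signalling receptor for VEGF-A, measured 146, 105, 119 and 109.9 CPM in WT mice 1 to 4 and 84.2, 77.0, 61.2 and 64.0 CPM in db/db mice 1 to 4. The genotypes did not overlap, and Kdr fell by 0.74 on the log2 scale (SE 0.15, 95% interval -1.06 to -0.42, edgeR adjusted p = 0.00127), its db/db mean being 59.7% of the WT mean. With the level of skeletal muscle genes as a covariate it did not pass (-0.72, edgeR adjusted p = 0.175). That level itself did not overlap between the genotypes (mean log2 CPM 4.66 to 6.52 in WT and 6.84 to 9.24 in db/db). The fit therefore cannot separate muscle content from genotype. Flt1 (ENSMUSG00000029648, chr5:147561604-147726011, minus strand), which binds VEGF-A tightly and also exists as a soluble decoy, measured 49.8, 56.1, 53.4 and 48.0 CPM in WT and 40.6, 43.9, 41.2 and 37.6 CPM in db/db mice. The genotypes did not overlap here either, with a log2 difference of -0.34 (SE 0.15, edgeR adjusted p = 0.0915) that missed the threshold of 0.05.

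Of the angiopoietin receptor pair, Tek was lower in db/db mice and Tie1 did not pass the test. Tek (ENSMUSG00000006386, chr4:94739289-94874976, plus strand) measured 8.90, 7.60, 6.76 and 17.4 CPM in WT and 5.41, 3.50, 4.43 and 4.09 CPM in db/db mice, which correspond to 18 to 41 and 10 to 18 counts. WT mouse 4 stood well above the others, but the genotypes did not overlap without it either. Tek fell by 1.20 on the log2 scale (SE 0.37, 95% interval -1.98 to -0.43, edgeR adjusted p = 0.0210), and the db/db mean was 42.9% of the WT mean. Without WT mouse 4 the log2 difference was -0.83 and without db/db mouse 2 it was -1.11, and neither passed (edgeR adjusted p = 0.125 and 0.0545). Tie1 (ENSMUSG00000033191, chr4:118471191-118490061, minus strand), an orphan receptor that pairs with TIE2, measured 16.2, 13.1, 9.39 and 7.22 CPM in WT and 12.03, 12.7, 11.5 and 8.93 CPM in db/db mice. Its groups overlapped throughout, and the log2 difference was -0.02 with a 95% interval from -0.61 to 0.58 (edgeR adjusted p = 0.973), which leaves room for a change of either sign.

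**Figure D1:**
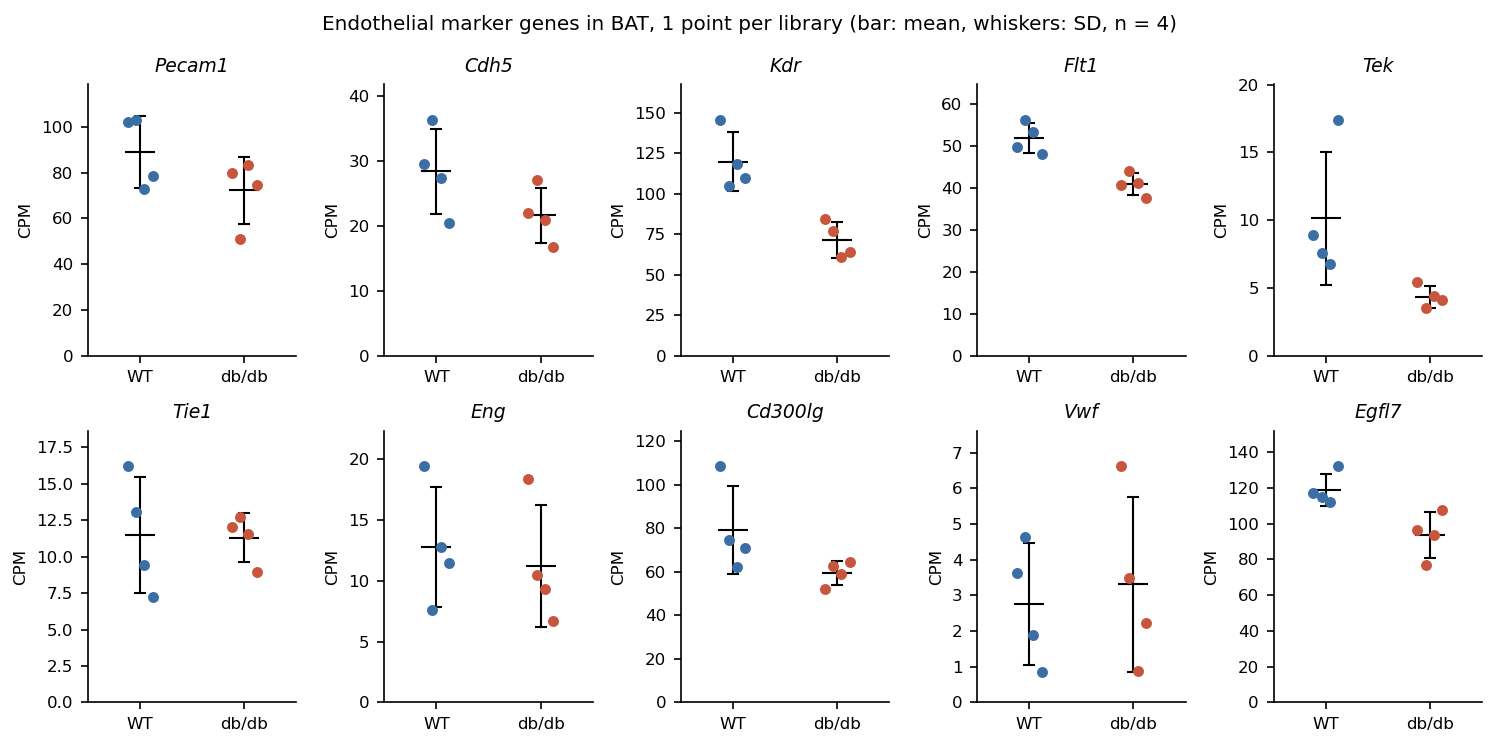
Level of each endothelial marker gene in CPM (vertical axis) in the 4 WT and 4 db/db libraries (horizontal axis), with each point 1 mouse, the bar the mean and whiskers the SD. The genotypes do not overlap for Kdr, Flt1, Tek and Egfl7.

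The junction genes did not pass the test. Pecam1 (ENSMUSG00000020717, chr11:106654217-106750628, minus strand), which encodes CD31 and is also made by macrophages and platelets, measured 102, 103, 72.9 and 78.5 CPM in WT and 79.7, 50.9, 83.3 and 74.8 CPM in db/db mice. The groups overlapped and the log2 difference was -0.31 (SE 0.17, edgeR adjusted p = 0.202), or -0.17 without db/db mouse 2. Cdh5 (ENSMUSG00000031871, chr8:104101625-104144511, plus strand), the gene of VE-cadherin and the member most confined to endothelium, measured 29.5, 36.3, 27.4 and 20.4 CPM in WT and 22.0, 27.0, 20.8 and 16.7 CPM in db/db mice. The groups overlapped, with a log2 difference of -0.39 (SE 0.21, 95% interval -0.84 to 0.06, edgeR adjusted p = 0.194).

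Egfl7, Cd300lg and Eng likewise missed the threshold. Egfl7 (ENSMUSG00000026921, chr2:26580014-26593120, plus strand), which encodes a secreted endothelial protein and hosts the endothelial microRNA gene Mir126a, measured 117, 115, 112 and 132 CPM in WT and 96.3, 77.0, 93.5 and 107.9 CPM in db/db mice. The groups did not overlap, and the log2 difference was -0.35 (SE 0.14, edgeR adjusted p = 0.0689). Without db/db mouse 4 it was -0.42 and passed (edgeR adjusted p = 0.0418). Its exons overlap those of Agpat2 on the opposite strand, a gene that was lower in db/db mice (236 ± 76.5 to 125 ± 42.3 CPM, SD, n = 4 each, edgeR adjusted p = 0.00604). Strand use in counting was not stated, so the value of Egfl7 is uncertain. Cd300lg (ENSMUSG00000017309, chr11:102041509-102055620, plus strand), a capillary surface protein, measured 108, 74.7, 62.4 and 70.9 CPM in WT and 52.0, 62.7, 59.0 and 64.4 CPM in db/db mice. WT mouse 3 fell within the db/db range, and the log2 difference was -0.41 (SE 0.17, edgeR adjusted p = 0.0809). Cd300lg passed without WT mouse 3 (-0.53, edgeR adjusted p = 0.0325) and when every gene with at least 1 count was tested (-0.46, edgeR adjusted p = 0.0375), and it was -0.24 without WT mouse 1. Eng (ENSMUSG00000026814, chr2:32646595-32682669, plus strand), which encodes the transforming growth factor beta co-receptor endoglin and is also found on macrophages, measured 19.4, 7.60, 12.8 and 11.5 CPM in WT and 18.4, 10.5, 9.31 and 6.70 CPM in db/db mice. The groups overlapped widely, and the log2 difference was -0.18 with a 95% interval of -0.88 to 0.53 (edgeR adjusted p = 0.744). Eng shares exonic bases with Fpgs on the other strand.

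Vwf (ENSMUSG00000001930, chr6:125546774-125686679, plus strand), the von Willebrand factor gene of larger vessels, did not pass the filter on low counts. It had 9, 11, 5 and 2 counts in WT and 22, 11, 2 and 6 counts in db/db mice. No direction could be read at this depth, and when every gene with at least 1 count was tested the log2 difference was 0.26 (edgeR adjusted p = 0.791).

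Across the list, 2 of the 9 members tested were lower in db/db mice, none rose and 7 did not pass. The count lower was 1 without WT mouse 4 or without db/db mouse 2. It was 0 with the skeletal muscle gene level, which itself separated the genotypes, as a covariate. Of all 9264 genes tested, 27.7% passed the threshold, 11.9% lower and 15.8% higher, so the members' share lower of 22.2% stands beside a background of 11.9% and is a count of 2 genes. All 9 log2 differences were negative in the fit described, with a median of -0.35, beside a median of 0.01 over all tested genes, where 4667 were above 0 and 4597 below. The sign changed in 7 of 17 alternatives for Tie1, in 2 for Eng and in 1 for Cd300lg. Every db/db library lay below every WT library for 4 members, against 12.7% of all tested genes. Summed over the 10 genes, WT libraries held 478 to 601 CPM (525 ± 54.2, SD, n = 4) and db/db libraries 369 to 417 CPM (390 ± 20.2). The sums did not overlap, and without Kdr, a comparison added after seeing the data, they still did not (359 to 455 CPM in WT and 292 to 333 CPM in db/db).

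Each member's share of the summed member counts does not depend on scaling between libraries, so it shows whether the members changed alike. Tek made up 1.42% to 3.50% of the member counts in WT and 0.949% to 1.30% in db/db mice, with no overlap (exact two-sided permutation p = 0.0286, the smallest that 4 against 4 can give). The difference of the means was -0.85 percentage points, and -0.34 without WT mouse 4. Kdr made up 22.8% ± 2.17 in WT and 18.4% ± 2.53 in db/db mice (SD, n = 4 each, exact permutation p = 0.0857). None of the other 8 shares reached p under 0.114, and the p of Tek, 1 of 10 computed, was not adjusted for their number. When Tek was set against Cdh5 within each library instead, the log2 ratio differed by -0.64 (exact permutation p = 0.286). Among ratios of receptor counts, picked after their values were seen and so not tested, Tek over Tie1 was 0.55 to 2.41 in WT and 0.275 to 0.458 in db/db mice. The genotypes were separate on that ratio, whereas Kdr over Flt1 (1.87 to 2.93 in WT and 1.48 to 2.07 in db/db) overlapped.

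Of the ligands of these receptors, Vegfa fell and Angpt1 rose. Vegfa, the ligand of the products of Kdr and Flt1, measured 110.1, 125, 96.2 and 95.1 CPM in WT and 30.7, 64.9, 50.5 and 63.6 CPM in db/db mice. The genotypes did not overlap, and Vegfa fell by 1.03 in log2 units (SE 0.20, with an edgeR adjusted p of 0.000715). Angpt1, the agonist of TIE2, measured 17.4, 12.7, 12.02 and 16.5 CPM in WT and 24.97, 38.8, 23.9 and 32.7 CPM in db/db mice. It gained 1.04 in log2 units (SE 0.22, with an edgeR adjusted p of 0.00175), with no overlap, while its exons overlap a predicted gene on the opposite strand. Vegfb, a ligand of the Flt1 product, measured 230 ± 17.3 CPM in WT and 256 ± 39.3 CPM in db/db mice (SD, n = 4 each), with a log2 difference of 0.15 that did not pass (edgeR adjusted p = 0.437). It was named after its values were seen. Angpt2, the context-dependent antagonist, had 0 to 10 counts and was not tested. Pgf, a further ligand of the Flt1 product, was also too low to be tested, with 0 to 1 counts in WT and 4 to 14 in db/db mice, and so was Vegfd, a ligand of the lymphatic receptor VEGFR3, with 2 to 6 and 10 to 28. Neither overlapped between the genotypes, and both were named after their values were seen. Of the 14 ligands and co-receptors in the list, 9 were tested, with 1 higher, 1 lower and 7 that did not pass. Among all tested genes, 15.8% were higher and 11.9% lower.

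**Figure D2:**
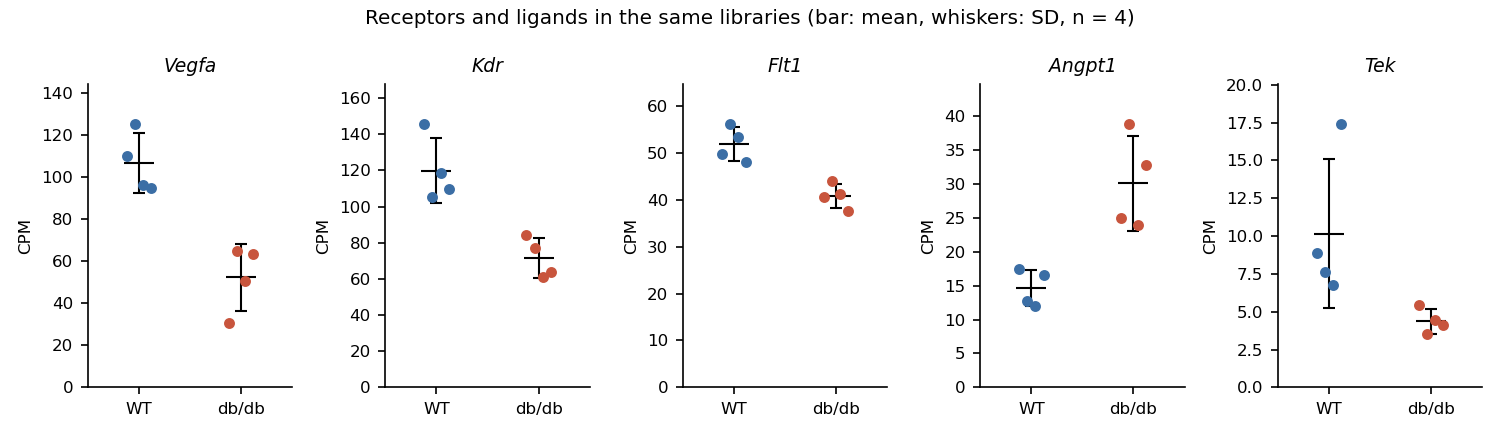
Level in CPM (vertical axes) of Vegfa, Kdr, Flt1, Angpt1 and Tek in each WT and db/db library, with points for mice, bars for means and whiskers for SD (n = 4). Vegfa, Kdr, Flt1 and Tek are below every WT library in all db/db libraries and Angpt1 is above.

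A wider list of 32 endothelial genes shared no member with the 10, and 25 of its genes were tested. Among them 3 were lower (12%), 2 were higher (8%) and 20 did not pass, with a median log2 difference of 0.11 and 15 above 0. Of all tested genes 11.9% were lower and 15.8% higher, so the list's share lower was near the background. Emcn, a sialomucin of capillary and venous endothelium, fell by 1.06 on the log2 scale (14.7 ± 2.12 to 6.94 ± 2.53 CPM, SD, n = 4 each, edgeR adjusted p = 0.0115). Adgrl4, an adhesion receptor of endothelium, fell by 0.54 (38.3 ± 10.2 to 26.2 ± 2.41 CPM, edgeR adjusted p = 0.0451), and Adgrf5 fell by 0.53 (edgeR adjusted p = 0.0141). Cav1, the caveolin that adipocytes also make in quantity, rose by 1.22 (137 ± 15.1 to 319 ± 37.7 CPM, edgeR adjusted p = 4.15e-06), and Cd34, which adipose progenitors also carry, rose by 0.72 (edgeR adjusted p = 0.0127), though its exons overlap a predicted gene on the opposite strand. Cldn5, the tight junction claudin of endothelium, had a log2 difference of 0.31 and Ly6c1, a capillary and monocyte surface protein with a near-identical copy, Ly6c2, that could share its reads, one of -0.38, and neither passed (edgeR adjusted p = 0.248 and 0.100). The summed level of the wider list was 800 ± 64.4 CPM in WT and 956 ± 87.4 CPM in db/db mice. Its ranges did not overlap, with every db/db library above every WT library (734 to 885 and 886 to 1081 CPM). Leaving out Cav1, chosen after its value was seen, gave 663 ± 50.7 and 637 ± 72.4 CPM, which overlapped.

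Genes of capillary lipid handling also split. Of 8 tested, 2 were lower, 2 higher and 4 did not pass, beside 11.9% lower and 15.8% higher of all tested genes. Btnl9 fell by 1.17 on the log2 scale (36.1 ± 6.25 to 16.2 ± 4.37 CPM, edgeR adjusted p = 0.000626) and Car4, a carbonic anhydrase of capillaries, by 0.72 (52.6 ± 13.04 to 32.1 ± 3.30 CPM, edgeR adjusted p = 0.00780). Cav2, caveolin 2, rose by 0.88 and the water channel gene Aqp1 by 0.46 (edgeR adjusted p = 6.72e-05 and 0.0216). Gpihbp1, which carries lipoprotein lipase across capillary endothelium, had a log2 difference of 0.21 (98.4 ± 14.5 to 114 ± 6.96 CPM, edgeR adjusted p = 0.265). The sum of the 8 genes was 495 to 536 CPM in WT and 578 to 671 CPM in db/db mice, with no overlap. Without Cav2, which adipocytes also make, the sums overlapped (405 to 428 CPM in WT and 380 to 498 CPM in db/db), and without Cav2 and Aqp1 they were lower in db/db mice (237 to 266 CPM in WT and 190 to 235 CPM in db/db). Both genes were left out after their values were seen. They are the 2 called higher, while the 2 called lower stayed in, so the last sum cannot show a direction for the list.

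**Figure D3:**
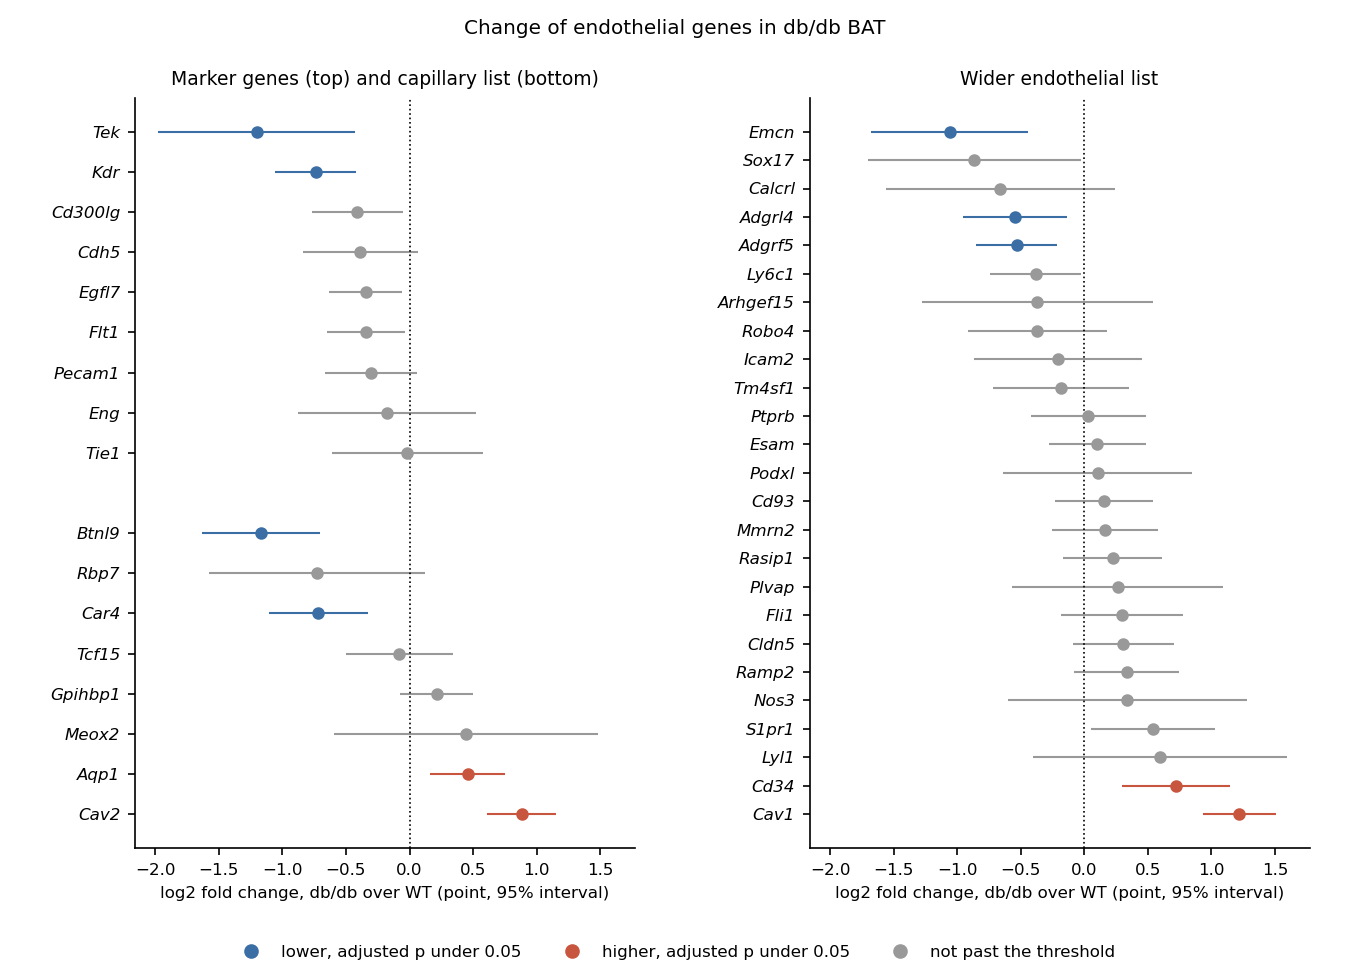
Log2 fold change of db/db over WT (horizontal axis, point and 95% interval) for the tested marker genes and capillary genes on the left and the wider endothelial list on the right, with blue for lower, red for higher and grey for genes that did not pass an adjusted p of 0.05. All 9 tested marker genes lie left of 0, whereas the wider list spans both sides, from Emcn at -1.06 to Cav1 at 1.22.

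Mural cells, which wrap the vessels, gave no lower gene, beside 11.9% lower and 15.8% higher of all tested genes. Of 9 tested, 4 were higher, among them Acta2 (smooth muscle actin, log2 difference 2.21, edgeR adjusted p = 1.32e-05), Cspg4 (NG2, 1.02, adjusted p = 0.0363) and the pericyte gene Rgs5 (0.51, adjusted p = 0.00669). Their sum was 244 to 283 CPM in WT and 382 to 495 CPM in db/db mice, and 225 to 257 CPM and 299 to 373 CPM without Acta2, left out after its value was seen. Acta2 and Cspg4 are also made by fibroblasts and other stromal cells.

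Markers of several other cell types moved with genotype, whereas the red blood cell and brown adipocyte sums overlapped. Of all tested genes 15.8% were higher and 11.9% lower. Skeletal muscle genes were higher in 12 of 12 (summed 439 to 1557 CPM in WT and 2306 to 11454 CPM in db/db, highest in db/db mouse 1), macrophage genes in 9 of 10 (159 to 214 and 777 to 1364 CPM) and fibroblast genes in 8 of 8 (623 to 788 and 1264 to 2726 CPM). The muscle genes with the largest log2 differences were Tnnc2 (3.05), Acta1 (3.05), Tnni2 (2.89) and Mylpf (2.70), which encode proteins of the contractile apparatus. Those of the macrophage list were Lyz2 (2.79), Tyrobp (2.78), C1qb (2.41) and Cd68 (2.41). Those of the fibroblast list, of the extracellular matrix except Pi16, were Dpt (2.45), Col3a1 (2.06), Pi16 (1.95) and Col1a2 (1.54). Red blood cell genes were higher in 1 of 5 (Hbb-bt, log2 difference 0.81), with sums of 3106 to 8715 and 6472 to 17009 CPM that overlapped. Of 6 platelet genes Pf4, also a macrophage gene, was the only tested one and was higher (16.2 to 83.4 CPM, sum 15.8 to 31.0 and 70.3 to 112 CPM), and Gp1ba had 0 counts throughout. Brown adipocyte genes summed to 14987 to 21098 CPM in WT and 16517 to 22288 CPM in db/db mice, with 4 of 8 tested lower and 2 higher, the largest log2 differences being those of Cidea (-1.24), Ppargc1a (-0.79), Plin1 (0.79) and Ucp1 (-0.65). Without db/db mouse 1, Kdr had a log2 difference of -0.83 (edgeR adjusted p = 0.000652) and Tek of -1.34 (edgeR adjusted p = 0.0233). With the muscle gene level, which separated the genotypes, as a covariate, Tek, like Kdr, did not pass (-2.05, edgeR adjusted p = 0.0583). The part of the other lists in the marker results was not tested.

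**Figure D4:**
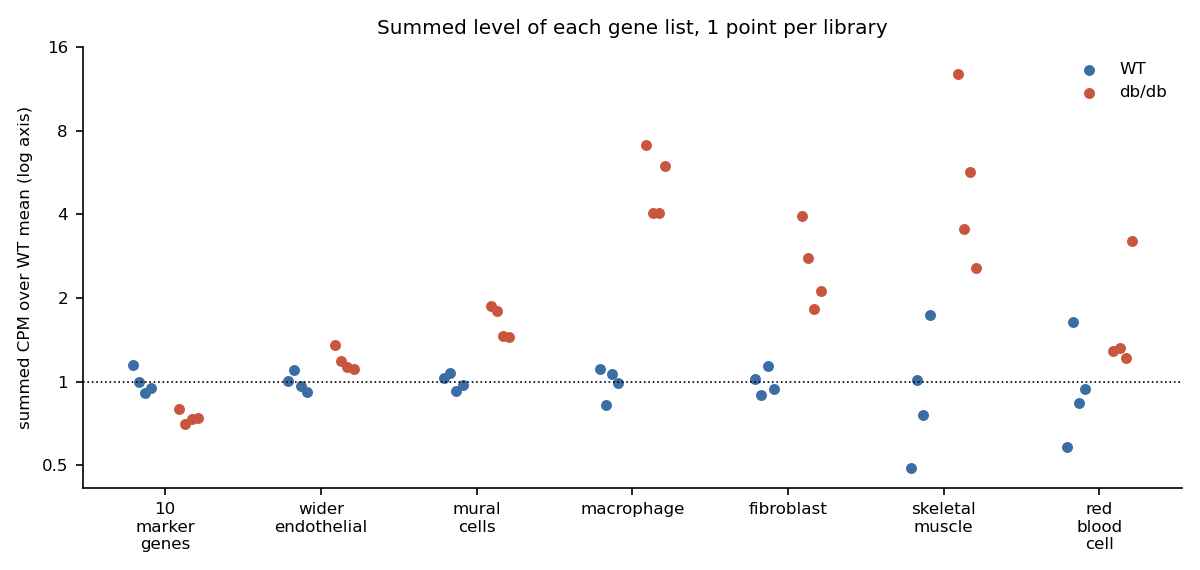
Summed CPM of each gene list in every library divided by the list's WT mean (vertical log axis), with blue points for WT and red for db/db. The sum of the 10 marker genes is below every WT value in all db/db libraries. The wider endothelial, mural, macrophage, fibroblast and muscle sums are above every WT value, and the red blood cell sums overlap.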

How the data were processed

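Bulk RNA-seq of BAT from 4 WT and 4 db/db mice was analysed, 1 mouse per library. The authors trimmed reads, aligned them to mm10 and deposited raw counts per gene (bbduk, STAR and HTSeq-count in the study's methods, and Trimmomatic and HISAT2 in the submitters' processing notes). Neither strand use in counting nor collapsing of molecular identifiers was stated. The deposited normalised table and sample sheet were not used. Of 31053 identifiers, 31011 matched a GENCODE annotation. Genes kept by filterByExpr (counts of at least 10, total of at least 15) were tested with edgeR 4.0.16 (TMM scaling, quasi-likelihood F test, R 4.3.3) on genotype alone, with p-values adjusted by Benjamini-Hochberg over all tested genes (threshold 0.05). SEs were derived from the F statistic. DESeq2 1.42.0, limma 3.58.1 and other filters, scalings and covariates were alternatives, and the code was checked on simulated data. Shares were compared by exact permutation over samples. Detection floors cover counting error only. The members and lists were chosen with earlier results of these data known. All members were named, and from each other list up to 4 genes past the threshold with the largest changes and at least 5 CPM, plus Vegfa, Angpt1, Angpt2, Gpihbp1, Cav1, Emcn, Cldn5, Ly6c1 and Lepr. Adgrf5, Agpat2, Vegfb, Pgf, Vegfd and the low lymphatic genes were added after their values were seen, as were Adipoq, Sele and Gp1ba, given only as marker checks.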

Additional observations from a re-analysis of the deposited data

How the results depend on the processing

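Over 17 alternatives Kdr passed in 16 and Tek in 14, with log2 differences of -0.83 to -0.65 and -2.05 to -0.83. Leaving out 1 library gave 2236 to 2483 genes in all (2568 otherwise), 1 to 3 members lower and 0 higher, and in the wider list 4 to 6 changed, 1 to 2 higher and 2 to 4 lower. The member count was 1 without WT mouse 4 or without db/db mouse 2, where Tek was lost. With the skeletal muscle covariate 502 genes, 0 members and 2 wider genes (1 higher, 1 lower) passed, and the cause was not tested. That covariate did not overlap between the genotypes, so this fit cannot separate the 2. With at least 10 counts in every sample the wider list had 3 (1 lower), with fewer genes tested. Tie1 changed sign to 0.036 with that filter, 0.038 with limma-voom, 0.0039 with a replicate block and 0.25 with the muscle covariate, and ranged from -0.19 to 0.17 with 1 library left out, as did Eng from -0.54 to 0.071. The log2 difference of Cd300lg was 0.052 with the covariate and -0.53 to -0.24 with 1 library left out. Its share of the member counts differed by 0.43 percentage points, -0.19 to 1.48 with 1 library left out. As a log2 ratio to Cdh5 it differed by -0.0075 (db/db minus WT), so the share has no settled sign. The replicate block gave 2557 genes and the same count of 2 members, and same-numbered mice did not deviate together (mean r -0.0011). Counts of 10 to 41 limit Tek, and a count of 2 to 22 limits Vwf.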

Other observations

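The other endothelial lists held few genes with enough counts. Of 12 arterial and Notch genes 5 were tested and none passed, and their sums overlapped (41.2 to 77.7 CPM in WT and 56.0 to 74.6 CPM in db/db). Of 8 venous and activation genes 4 were tested and 1, Lrg1, which encodes a secreted glycoprotein also made by other cells, rose by 1.34 on the log2 scale (edgeR adjusted p = 7.69e-06), while the activation marker Sele had 0 counts in all libraries, and the list summed to 148 to 216 CPM in WT and 356 to 489 CPM in db/db mice, but to 42.1 to 66.8 CPM and 51.5 to 71.9 CPM, which overlapped, without Lrg1, left out after its value was seen. Of 7 lymphatic genes 2 were tested and both were higher: Lyve1, which macrophages also express, rose from 9.02 to 68.8 CPM and Pdpn from 2.08 to 10.7 CPM (edgeR adjusted p = 6.53e-07 and 0.00107), and the other 5 were too low to be tested. Among these, the defining gene Prox1 had 0 to 3 counts in WT and 4 to 17 in db/db mice, and its exons overlap Prox1os on the opposite strand. The receptor gene Flt4 had 3 to 14 counts in WT and 4 to 8 in db/db mice, Mmrn1 and Reln also overlapped between the genotypes, and Ccl21a had 0 counts in all libraries.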
